A study of Mus musculus with 12 samples.

Results

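The genes described here are 30 genes of cholesterol synthesis and sterol balance, chosen by name and grouped by role: the mevalonate enzymes, the squalene and sterol enzymes, the control of the transcription factor SREBP, sterol uptake and transport, the fatty acid desaturases that share that control, and cholesterol efflux. Of the 30 genes, 29 had a probe set on the array, 62 probe sets in all, and stand among 18194 genes measured. Acat2, the cytosolic thiolase at the head of the pathway, has no probe set in the annotation used here and is not analysed. Abdominal fat pads were taken from female mice of the C57BL/6 strain, either wild type or p47phox null, the null animals lacking the subunit, encoded by Ncf1, that organises the superoxide-making NADPH oxidase. Mice of either genotype ate casein, the control diet, or a high fat diet (HFD) for 13 weeks from postnatal day 28. Each of the 12 Affymetrix arrays measured 1 pool of fat pads, 3 pools for every pairing of wild type (WT) or null genotype with casein or HFD. How many animals made up a pool is not given, and the labels do not say whether the wild type mice were littermates of the null mice.

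Cells make cholesterol from acetyl-CoA by way of mevalonate, farnesyl diphosphate and squalene. When sterol in the endoplasmic reticulum is scarce, SCAP escorts the SREBP proteins to the Golgi, where they are cut and released to switch on the synthesis genes. When sterol is plentiful, the INSIG proteins hold SCAP back, and oxysterols acting through the LXR receptors switch on the exporters ABCA1 and ABCG1 and the LDL receptor-degrading ligase MYLIP. Adipocytes store a large share of the body's free cholesterol, and steroid-making cells of the ovary and adrenal gland run both synthesis and uptake at a high rate.

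The values are log2 signals that the authors had set to a median of 0 for each probe set, so a value says how a pool stands against the middle of all pools and gives no expression level. Markers of other tissues differed widely between pools. The median of 16 measured reproductive tract markers (of 17 listed), among them the granulosa cell gene Inha and the oocyte coat gene Zp3, lay between -0.83 and 0.29 in WT and between -0.036 and 0.27 in null pools fed casein, and between -0.72 and -0.39 in WT and 0.098 and 0.78 in null pools fed HFD. In null pools on HFD 6 of these 16 markers rose and 0 fell against WT, with a median difference of 1.19 and all 16 above 0. A list of 10 measured ovary steroid and granulosa cell markers shares genes with this one. Of these 10 markers 5 rose and 0 fell there, with a median difference of 2.26 and all 10 above 0. Of 7 measured proliferation markers 6 rose in the same comparison, with a median difference of 1.11. All 8 measured mature adipocyte markers had differences below 0 there, with a median of -0.34, and 1 of them fell (Lep, the hormone leptin), while their median by pool lay between -0.54 and 0.21. All 9 measured macrophage markers were also below 0, with a median of -0.46 and 0 called, 5 of them at an unadjusted limma p under 0.05. Over all genes in this comparison 43.4% of differences were above 0, 5.92% were called and 24.9% had an unadjusted limma p under 0.05. The part of the tissue and cell markers in the results that follow was tested only for the reproductive tract, muscle and liver medians, as covariates. Since the values are centred, no marker can be read as absent and the fat content of a pool cannot be checked against a level. WT casein pool 3 stood apart with a liver marker median of 4.63 and an adrenal marker median of 3.57, and skeletal muscle medians reached 4.57 in WT HFD pool 2 and 3.77 in null HFD pool 1. Medians of 7 measured brown and beige adipocyte markers ran from 0.649 to 2.515 in WT casein and -1.255 to 0.859 in null casein pools. On HFD these medians ran from -0.947 to 1.12 in WT and from -0.649 to -0.194 in null pools, and their part was not tested. Ncf1 lay from 0.075 to 0.85 in the 6 WT pools and from -0.29 to -0.19 in the 6 null pools, so the genotypes did not overlap, and it fell by 0.76 ± 0.16 (SE, n = 3 v 3 pools; limma adjusted p = 0.0312) in null pools on HFD. On casein the Ncf1 difference was -0.65 ± 0.16 (adjusted p = 0.521). The call on HFD ended without null casein pool 2 (adjusted p = 0.051), without WT HFD pool 1, 2 or 3 (adjusted p = 0.0575, 0.0712 and 0.102) and without null HFD pool 2 or 3 (adjusted p = 0.1 and 0.109). With medians of reproductive tract, muscle and liver markers as covariates it was -0.53 (adjusted p = 0.823).

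**Figure D1:**
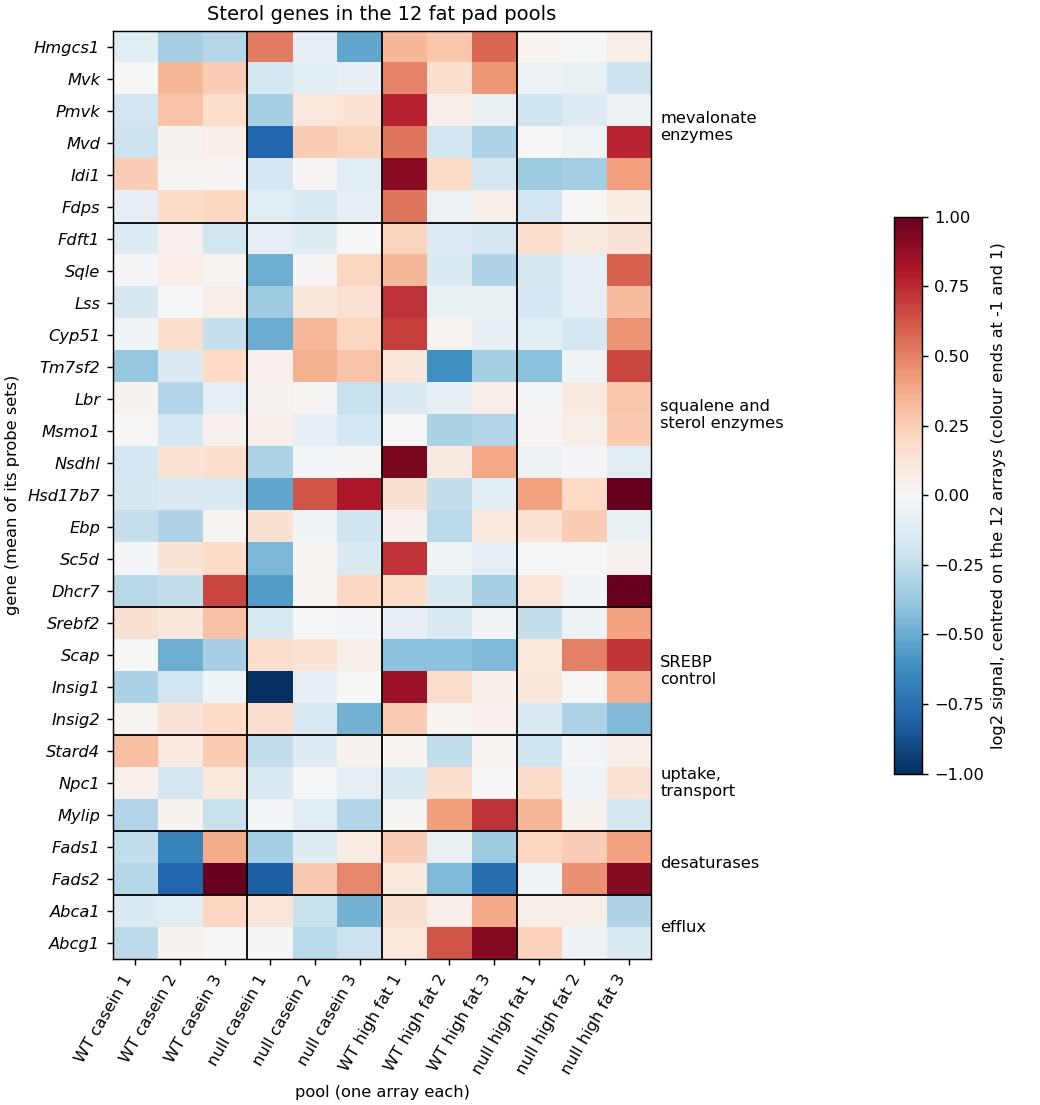
Log2 signal of the 29 measured genes (rows, grouped by role) in the 12 pools (columns, 1 array each), centred on the 12 arrays, with red above and blue below the middle and colours ending at -1 and 1. WT HFD pool 1 and null HFD pool 3 are red, and null casein pool 1 blue, over much of the enzyme block, while Scap and Mvk change colour between the genotypes.

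The genotypes were compared on HFD, where the study asks how the loss of p47phox alters fat. Of the 29 genes 1 rose and 1 fell in null pools: Scap, the sterol sensor that escorts SREBP, rose, and Mvk, mevalonate kinase, fell. That is 6.9% of the 29 genes, beside 5.92% of all genes called in this comparison, 3.21% higher and 2.71% lower. The median log2 difference of the 29 genes was 0.015, beside -0.031 over all genes, and without 1 pool it ranged from -0.087 (null HFD pool 3) to 0.084 (WT HFD pool 1). Between genotypes on casein 0 of the 29 genes passed, beside 0% of all genes, with 3 at an unadjusted limma p under 0.05 against 8.12% of all genes. The count on HFD at that unadjusted p was 6, beside 24.9% of all genes. Complete separation of the pools on HFD was seen for 3 genes higher in null pools (Msmo1, Hsd17b7, Scap) and 4 lower (Hmgcs1, Mvk, Nsdhl, Insig2), beside 14.9% and 17.3% of all genes. On casein it was seen for 1 higher (Scap) and 4 lower (Mvk, Idi1, Srebf2, Stard4), beside 5.4% and 6.57%.

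Scap was at -0.003, -0.49 and -0.34 in WT casein pools 1, 2 and 3 and at 0.18, 0.14 and 0.059 in null casein pools. On HFD it was at -0.41, -0.41 and -0.44 in WT pools and at 0.10, 0.51 and 0.72 in null pools. All 6 null pools were above all 6 WT pools, the WT HFD pools were almost level with each other, and null HFD pools 2 and 3 were the highest of the 12. Scap rose by 0.86 ± 0.15 (SE, n = 3 v 3 pools; limma adjusted p = 0.0225) in null pools on HFD. The difference on casein was 0.40 ± 0.15 (adjusted p = 0.574), and averaged over both diets, a comparison that uses the same pools again, Scap rose by 0.63 ± 0.11 (adjusted p = 0.016). Both of its probe sets separated the genotypes on HFD: the first ran from -0.76 to -0.57 in WT and from 0.15 to 0.87 in null pools, the second from -0.25 to -0.12 and from 0.064 to 0.56. In the order of group means Scap was lowest in WT HFD pools at -0.42 ± 0.019 (SD), then in WT casein pools at -0.28 ± 0.25, null casein pools at 0.13 ± 0.061 and null HFD pools at 0.44 ± 0.31, and the neighbours within a genotype overlapped or lay within the SD of the wider group.

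Mvk phosphorylates mevalonate, the product of HMG-CoA reductase. It was at 0.005, 0.33 and 0.25 in WT casein pools and at -0.17, -0.11 and -0.080 in null casein pools. In WT HFD pools it stood at 0.50, 0.16 and 0.44, and in null HFD pools at -0.052, -0.075 and -0.21. The 6 WT pools all lay above the 6 null pools, with WT casein pool 1 nearest to them. Mvk fell by 0.48 ± 0.11 (SE, n = 3 v 3 pools; limma adjusted p = 0.0344) in null pools on HFD, with a difference of -0.32 ± 0.11 on casein (adjusted p = 0.573). Averaged over the diets it fell by 0.40 ± 0.076 (adjusted p = 0.0208). Both Mvk probe sets separated the genotypes on HFD, at 0.20 to 0.55 against -0.10 to -0.0098 for the first and 0.11 to 0.45 against -0.39 to 0 for the second. Averaged over the diets 2 of the 29 genes passed, Scap and Mvk again, beside 7.52% of all genes, 4.09% higher and 3.42% lower. At an unadjusted limma p under 0.05 the averaged count was 6, beside 25.6%. Scap was the gene with all 6 null pools above all 6 WT pools and Mvk the one with all 6 below, separations seen for 1.27% and 1.8% of all genes.

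These calls were close to the threshold, and markers of other tissue differed between the same pools. Without single pools the Scap call on HFD ended, at adjusted p = 0.0556, 0.0554 and 0.0746 without WT HFD pool 1, 2 or 3 and 0.0877 and 0.08 without null HFD pool 2 or 3. The Mvk call ended without null casein pool 2 (adjusted p = 0.0563), WT HFD pool 1 or 3 (0.0962 and 0.11) or null HFD pool 2 or 3 (0.103 and 0.136). Averaged over the diets the Scap call ended without null casein pool 2 (adjusted p = 0.0507). The averaged Mvk call ended without WT casein pool 2 (0.0501), null casein pool 2 (0.0588) or null HFD pool 2 or 3 (0.0524 and 0.0521). Reproductive tract medians were 0.098, 0.57 and 0.78 in the 3 null pools on HFD, where Scap was at 0.10, 0.51 and 0.72, and -0.39, -0.68 and -0.72 in the WT pools, and 13 of the 16 markers had all null above all WT pools. In WT casein pool 1, where the tract median was 0.29, Scap was at -0.003 and Mvk at 0.005, nearer to the null pools than in the other WT pools. That pool also had a skeletal muscle median of 3.09, behind only WT HFD pool 2 and null HFD pool 1. It was not among the 3 pools left out below. The null casein pools had tract medians of -0.036, 0.12 and 0.27, all below that of WT casein pool 1, and Scap at 0.18, 0.14 and 0.059, all above it and in the reverse order of the tract medians. Tract medians of null and WT pools did not overlap on HFD, so tract content and genotype cannot be told apart there. With the reproductive tract, skeletal muscle and liver medians as covariates the differences on HFD kept their direction at 0.32 for Scap (adjusted p = 0.905) and -0.24 for Mvk (adjusted p = 0.911), neither called, in a fit that called 0% of all genes in this comparison. They were 0.24 (adjusted p = 0.933) and -0.22 (adjusted p = 0.883) in that fit when averaged over the diets. Without the 3 pools that carry most muscle or liver and adrenal markers they were 1.04 (adjusted p = 0.0431) and -0.61 (adjusted p = 0.0485). In pooled tissue, fewer cells of a type and less RNA per cell cannot be told apart.

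**Figure D2:**
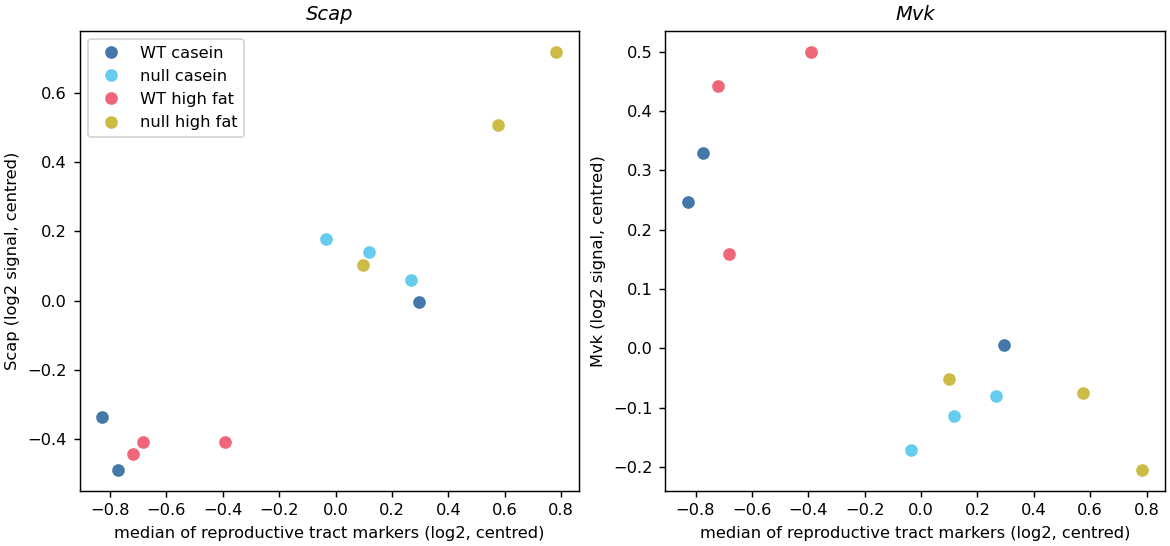
Scap (left) and Mvk (right), as centred log2 signal, against the median of 16 reproductive tract markers on the same scale, with 1 point for each of the 12 pools coloured by group. WT casein pool 1, with a tract median of 0.29, is the WT pool farthest to the right in both panels, with Scap at -0.003 and Mvk at 0.005.

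The promoters of the genes were read from RefSeq, as 250 bases before to 50 after a start, for what they share beyond their role. The table held 28 promoters for 22 of the 29 genes. The sequences shown are those of both called genes and of Hmgcs1, Insig1 and Lss, classical SREBP targets whose values are given further on. Each runs 5′ to 3′ on the plus strand of GRCm38.p6, and capitals mark CCAAT, the box bound by NF-Y, or its reverse complement ATTGG, and the sterol element TCACNCCAC. The windows are chr5:114444019-114444318 for Mvk, chr9:110333038-110333337 for Scap (the first of 2 starts), chr13:119690101-119690400 for Hmgcs1, chr5:28071162-28071461 for Insig1 and chr10:76531355-76531654 for Lss.
Mvk: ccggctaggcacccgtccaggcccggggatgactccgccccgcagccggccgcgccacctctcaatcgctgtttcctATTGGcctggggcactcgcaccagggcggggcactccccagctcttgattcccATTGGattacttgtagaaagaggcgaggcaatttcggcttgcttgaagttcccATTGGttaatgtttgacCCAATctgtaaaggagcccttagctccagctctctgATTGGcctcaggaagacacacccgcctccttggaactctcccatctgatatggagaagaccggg
Scap: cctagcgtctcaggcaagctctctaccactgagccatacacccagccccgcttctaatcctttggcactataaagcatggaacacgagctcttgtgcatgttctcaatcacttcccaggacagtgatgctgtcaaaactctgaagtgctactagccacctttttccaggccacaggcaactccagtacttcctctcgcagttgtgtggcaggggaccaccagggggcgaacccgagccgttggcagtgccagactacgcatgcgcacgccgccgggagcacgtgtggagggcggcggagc
Hmgcs1: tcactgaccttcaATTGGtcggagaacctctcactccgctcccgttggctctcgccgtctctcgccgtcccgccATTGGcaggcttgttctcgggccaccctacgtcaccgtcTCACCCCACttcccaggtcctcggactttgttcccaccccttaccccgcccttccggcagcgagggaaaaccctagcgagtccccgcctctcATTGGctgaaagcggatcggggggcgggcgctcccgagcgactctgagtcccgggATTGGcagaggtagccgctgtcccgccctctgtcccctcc
Insig1: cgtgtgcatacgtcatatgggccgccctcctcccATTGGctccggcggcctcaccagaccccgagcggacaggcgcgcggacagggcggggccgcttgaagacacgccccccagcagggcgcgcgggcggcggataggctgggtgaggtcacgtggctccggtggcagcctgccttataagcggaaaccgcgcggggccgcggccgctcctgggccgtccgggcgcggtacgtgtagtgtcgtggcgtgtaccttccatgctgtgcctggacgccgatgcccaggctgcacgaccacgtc
Lss: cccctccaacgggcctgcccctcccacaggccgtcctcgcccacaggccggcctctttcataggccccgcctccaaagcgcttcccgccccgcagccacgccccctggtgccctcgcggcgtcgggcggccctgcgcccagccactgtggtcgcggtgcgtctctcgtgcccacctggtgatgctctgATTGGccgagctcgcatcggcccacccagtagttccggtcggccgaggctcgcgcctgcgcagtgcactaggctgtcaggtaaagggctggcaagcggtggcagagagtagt
The Mvk promoter held 5 CCAAT boxes on either strand and the Scap promoters none, while Hmgcs1 held 4 beside the sterol element and Insig1 and Lss 1 each. A CCAAT box was present for 19 of the 22 genes, or 86.4%, beside 41.1% of all 27025 genes in the promoter table, and in 19 of the 28 promoters (67.9%) beside 37.4% of all. The GC box GGGCGG, the letters bound by Sp1, was present for 21 of the 22 genes (95.5%), beside 38.2% of all genes in that table. The table is not limited to genes measured on the array, and promoters were not matched for base content. TCACNCCAC on either strand was found in 1 of the 28 promoters, that of Hmgcs1, beside 1.24% of all promoters. The matches of these motifs did not overlap each other in the promoters shown, and a motif that was not found says only that these letters are not in the window.

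Upstream of farnesyl diphosphate, 6 mevalonate enzymes were measured, and 5 of the 6 had differences below 0 in null pools on HFD, with a median of -0.37, although Mvk alone passed. Over all genes 43.4% of differences were above 0 in that comparison, with a median of -0.031. Hmgcs1, which makes HMG-CoA, was at -0.11, -0.33 and -0.28 in WT casein pools and at 0.33, 0.28 and 0.57 in WT HFD pools. All 3 HFD pools were above all 3 casein pools. The difference was 0.64 ± 0.20 (SE, n = 3 v 3 pools; limma adjusted p = 0.566) and did not pass. The last of its 5 probe sets overlapped between the diets, at -0.55 to 0.17 in WT casein and -0.19 to 0.22 in WT HFD pools. In null pools Hmgcs1 spread from -0.52 to 0.51 on casein and lay at 0.016, -0.005 and 0.061 on HFD, so that the diets overlapped there. The later enzymes Pmvk (phosphomevalonate kinase), Mvd (mevalonate diphosphate decarboxylase), Idi1 (isopentenyl diphosphate isomerase) and Fdps (farnesyl diphosphate synthase) stood at 0.77, 0.54, 0.91 and 0.54 in that order in WT HFD pool 1, the highest of the 12 pools for each but Mvd, which reached 0.77 in null HFD pool 3. Idi1 ran from 0.014 to 0.24 in WT and from -0.17 to 0.012 in null casein pools, without overlap, and overlapped between genotypes on HFD.

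Among the 12 squalene and sterol enzymes none passed in any comparison over all 12 pools at equal weight. On HFD 8 had differences above 0 and 4 below 0 in null pools, with a median of 0.15, and 2 had an unadjusted limma p under 0.05, Nsdhl and Msmo1. Over all genes 43.4% of differences lay above 0 there and 24.9% had an unadjusted limma p under 0.05. Nsdhl, which removes a carboxyl group during sterol demethylation, was at 0.94, 0.088 and 0.39 in WT HFD pools and at -0.048, -0.010 and -0.11 in null pools. The pools did not overlap, and the difference of -0.53 ± 0.19 (SE, n = 3 v 3 pools; limma adjusted p = 0.115) did not pass. Msmo1, the methylsterol oxidase that acts before Nsdhl, differed the other way at 0.31 ± 0.11 (adjusted p = 0.117), from -0.20 ± 0.18 (SD) in WT to 0.11 ± 0.13 in null HFD pools. Its first probe set spanned 0.95 over the 12 arrays and its other 0.28. Fdft1, squalene synthase, spanned 0.40 as the mean of 4 probe sets that did not all follow each other and spanned 0.67 to 0.98 singly. The span was 0.57 for Lbr, a sterol reductase that also anchors the nuclear lamina.

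Hsd17b7 acts in sterol demethylation and also converts estrone to estradiol. It had the widest range of the enzymes. It was between -0.16 and -0.14 in the 3 WT casein pools, at -0.52, 0.63 and 0.81 in null casein pools, at 0.16, -0.24 and -0.10 in WT HFD pools and at 0.40, 0.20 and 1.64 in null HFD pools. All 3 null pools were above all 3 WT pools on HFD and on casein null pool 1 was the lowest of the 12. Averaged over the diets the genotype difference was 0.63 ± 0.27 (SE, n = 6 pools a genotype; limma adjusted p = 0.178), which did not pass. Of its 4 probe sets 3 spanned 2.30 to 3.15, and the remaining one spanned 0.48 and did not follow them. In null HFD pool 3, which holds the highest Hsd17b7, the reproductive tract median of 0.78 was also the highest of the 12 pools. Its part in the value of that pool was not tested separately. Over the 20 alternatives, the tissue covariates among them, the averaged Hsd17b7 difference ran from 0.338 to 0.895. It passed in none (limma adjusted p = 0.0528 to 0.998). Dhcr7, the reductase of the last step, was highest in the same pool at 0.99 and next in WT casein pool 3 at 0.67, the pool with the liver and adrenal medians given above.

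**Figure D3:**
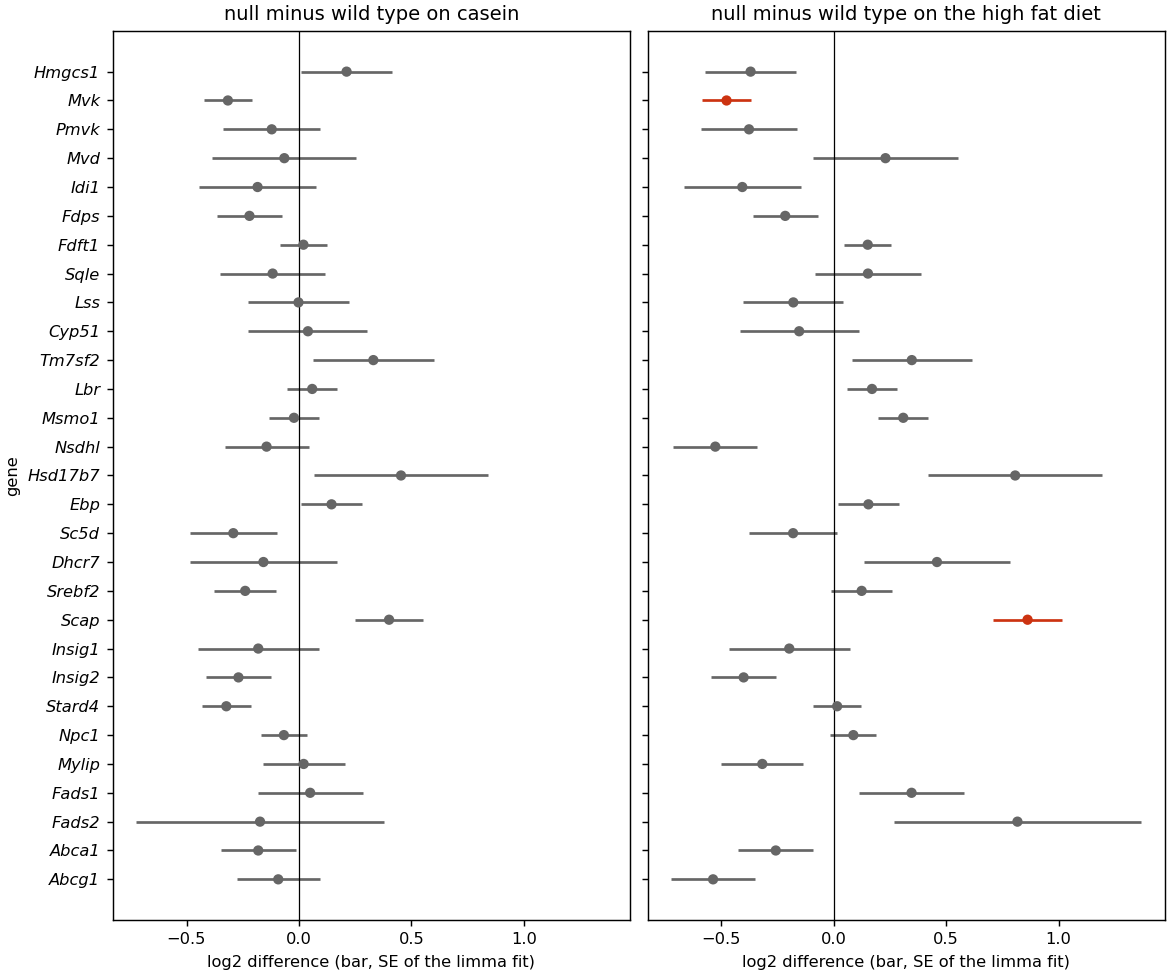
Log2 difference, null minus WT, of the 29 genes on casein (left) and on HFD (right), with the SE of the limma fit as bars and n = 3 pools a group, in red where the adjusted p passed 0.05. Scap at 0.86 and Mvk at -0.48 on HFD are the red points.

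Single pools held many of the extreme values of the synthesis enzymes. Of the 18 mevalonate, squalene and sterol enzymes 9 had their highest value of the 12 pools in WT HFD pool 1 and 7 in null HFD pool 3, pools that held the highest value for 10.7% and 15.6% of all genes. Null casein pool 1 held the lowest value for 9 of the 18, beside 8.21% of all genes. The median of the 18 enzymes was 0.41 in WT HFD pool 1 against -0.074 and -0.090 in pools 2 and 3 of that group, 0.27 in null HFD pool 3 against -0.030 and -0.018, and -0.24 in null casein pool 1 against 0.012 and 0.006. Lss, lanosterol synthase, was at 0.72, -0.066 and -0.073 in WT HFD pools and at -0.36, 0.11 and 0.14 in null casein pools. Cyp51, the lanosterol demethylase, was at 0.69, 0.024 and -0.082 and at -0.50, 0.32 and 0.22 in the same pools. Sc5d, a sterol desaturase, was at 0.72, -0.046 and -0.098 and at -0.45, 0.018 and -0.14. Each of these genes had WT HFD pool 1 far above the other pools of its group. Sqle, squalene epoxidase, reached 0.33 in WT HFD pool 1 and 0.59 in null HFD pool 3 and was lowest at -0.49 in null casein pool 1. Tm7sf2, a sterol reductase like Lbr, was highest in null HFD pool 3 at 0.67 and lowest in WT HFD pool 2 at -0.61, and Ebp, the sterol isomerase, stayed between -0.30 and 0.26.

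**Figure D4:**
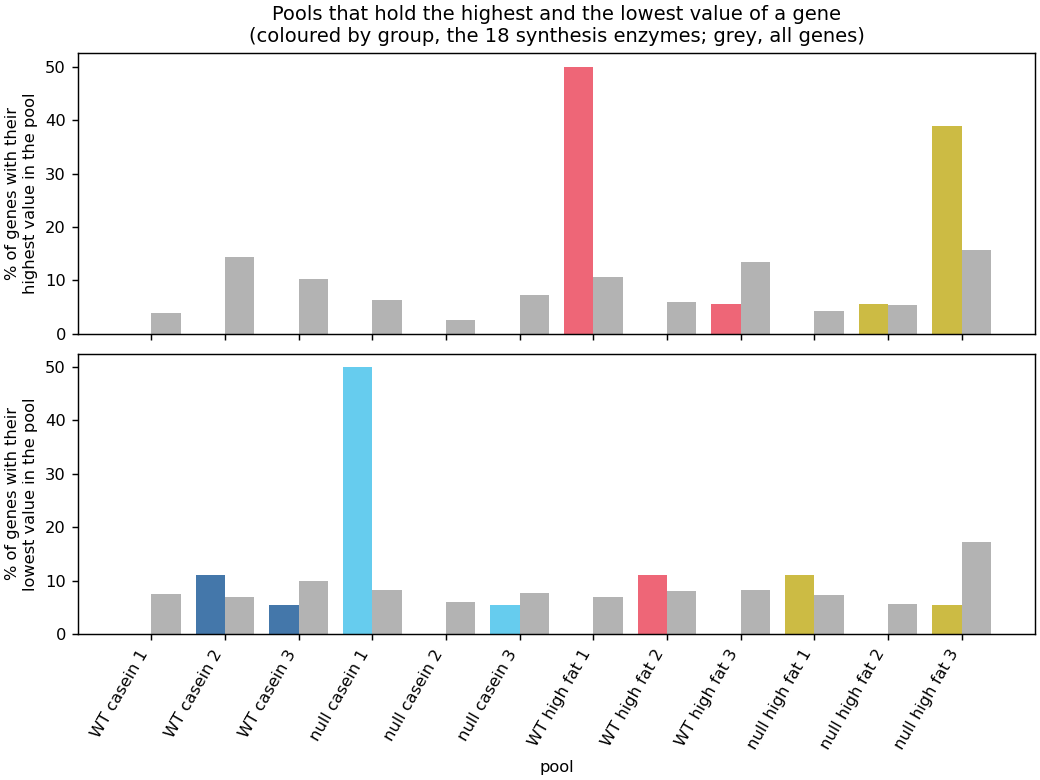
Share, in percent, of the 18 synthesis enzymes (coloured by group) and of all genes (grey) that had their highest (top) or lowest (bottom) value of the 12 pools in each pool. The tallest coloured bars are WT HFD pool 1 for the highest values and null casein pool 1 for the lowest, 9 of the 18 enzymes each, where all genes stand at 10.7% and 8.21%.

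The diets were compared to ask what HFD changes in sterol genes. In WT pools 0 of the 29 genes passed, beside 0% of all genes. At an unadjusted limma p under 0.05 there were 5, beside 7.61% of all genes. In null pools 0 passed, beside 0% of all genes, and 0 had an unadjusted limma p under 0.05, beside 4% of all genes. In WT pools 20 of the 29 differences were above 0 with a median of 0.086, and in null pools 25 of the 29 with a median of 0.17, where the medians over all genes were 0.001 and 0 and 50.3% and 49.9% of all genes lay above 0. The WT median was -0.058 without WT HFD pool 1, and without the 3 pools rich in muscle or liver markers it was 0.23. The null median was 0.076 without null casein pool 1. The interaction, the diet difference in null pools minus that in WT pools, passed for 0 of the 29, beside 0% of all genes, with 0 at an unadjusted p under 0.05 in limma, beside 6.12%. Averaged over the genotypes 0 of the 29 passed, beside 0.0055% of all genes, and 4 had an unadjusted limma p under 0.05, beside 5.23%. In WT pools 3 genes were higher in every HFD pool than in every casein pool (Hmgcs1, Insig1, Abcg1) and 2 lower (Srebf2, Stard4), beside 7.07% and 4.86% of all genes. In null pools the counts were 3 (Fdft1, Insig1, Fads1) and 0, beside 4.89% and 5.7%.

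Insig1 retains SCAP in the endoplasmic reticulum and is itself a target of SREBP. It was at -0.32, -0.19 and -0.043 in WT casein pools and at -1.01, -0.080 and -0.005 in null casein pools. On HFD it was at 0.86, 0.17 and 0.051 in WT and at 0.11, 0.005 and 0.36 in null pools. All 6 HFD pools were above all 6 casein pools, as for 0.181% of all genes in that direction and 0.0769% in the other, with null HFD pool 2 and null casein pool 3 almost level. The averaged difference was 0.53 ± 0.19 (SE, n = 6 pools a diet; limma adjusted p = 0.89) and did not pass. Insig2, its paralogue, was at 0.25, 0.022 and 0.041 in WT and at -0.14, -0.31 and -0.44 in null HFD pools. These pools did not overlap, and the difference of -0.40 ± 0.15 (adjusted p = 0.124) did not pass. Srebf2, which encodes SREBP-2, had a span of 0.64 over the 12 pools and lay above the null pools in the WT on casein, at 0.11 to 0.30 against -0.15 to -0.004, without passing.

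Efflux and uptake genes of the LXR axis had their highest values in WT HFD pools. Abcg1, which exports cholesterol to HDL, was at -0.27, 0.038 and 0.002 in WT casein pools and at 0.11, 0.63 and 0.92 in WT HFD pools, without overlap. Of its 2 probe sets only the first separated the diets in WT pools. In the second, WT HFD pool 1 at -0.003 was below WT casein pool 2 at 0.24. In null pools Abcg1 was at -0.021, -0.27 and -0.21 on casein and at 0.23, -0.049 and -0.13 on HFD. The diet difference in WT pools was 0.63 ± 0.18 (SE, n = 3 v 3 pools; limma adjusted p = 0.538), and the genotype difference on HFD was -0.54 ± 0.18 (adjusted p = 0.106), neither past the threshold. Without WT HFD pool 1 the genotype difference was -0.76 and passed (adjusted p = 0.0499), beside 0.934% of all genes called in that fit. Leaving out 1 pool at a time brought it as near to 0 as -0.353. In the other alternatives it ran from -0.604 to -0.117. It passed in 2 of the 20 alternatives, with limma adjusted p of up to 0.989 among them. Mylip, the ligase that marks the LDL receptor for degradation, was at -0.29, 0.039 and -0.22 in WT casein pools and at 0.010, 0.42 and 0.72 in WT HFD pools, which overlap. It was at -0.010, -0.11 and -0.29 in null casein pools and at 0.33, 0.035 and -0.17 in null HFD pools. The WT diet difference of Mylip was 0.54 ± 0.18 (adjusted p = 0.593). Abca1, which exports cholesterol to apolipoprotein A-I, was highest in the same WT HFD pool 3 at 0.38 and lowest in null casein pool 3 at -0.47, and its 3 probe sets spanned from 0.37 to 1.84. Median values of 9 macrophage markers in WT HFD pools 1, 2 and 3 were -0.005, 0.37 and 0.63, and of 8 lipid-associated macrophage markers -0.11, 0.21 and 0.91. That is the order of Abcg1 and Mylip, but not of Abca1 at 0.154, 0.053 and 0.38. In null HFD pools these medians were -0.027, 0.038 and -0.265 and 0.028, -0.026 and 0.016, neither in the order of Abcg1 and Mylip there. The part of these markers in the values was not tested.

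Stard4, a carrier of cholesterol between membranes, was at 0.30, 0.088 and 0.25 in WT casein pools, above the other 9 pools. It was at -0.24, -0.13 and 0.033 in null casein pools, at 0.016, -0.24 and 0.031 in WT HFD pools and at -0.20, -0.008 and 0.057 in null HFD pools. Of its 3 probe sets only the third put the WT casein pools above the other 9. In the first, WT casein pool 2 at 0.058 was below null HFD pool 2 at 0.23. In the second, WT casein pool 2 at -0.10 was below null HFD pool 3 at 0.20. The genotype difference on casein was -0.32 ± 0.11 (SE, n = 3 v 3 pools; limma adjusted p = 0.567) and the diet difference in WT pools, which shares the WT casein pools, -0.28 ± 0.11 (adjusted p = 0.639). Npc1, which releases cholesterol from lysosomes, had the smallest span of the 29 genes at 0.35. Fads2 and Fads1, the desaturases of polyunsaturated fatty acid synthesis, were led by WT casein pool 3 for Fads2, at 1.52 against -0.28 and -0.79 in the other pools of the group, and by null HFD pool 3 for Fads1, at 0.40. The span of Fads2, 2.34, was the largest of the 29 genes. The pool where Fads2 was highest had marker medians of 4.63 for liver, 3.57 for adrenal gland and 1.425 for lymphocytes. Their part in this value was not tested. In null pools Fads1 was higher in all 3 HFD pools, at 0.21 to 0.40, than in all 3 casein pools, at -0.33 to 0.072, without passing.

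**Figure D5:**
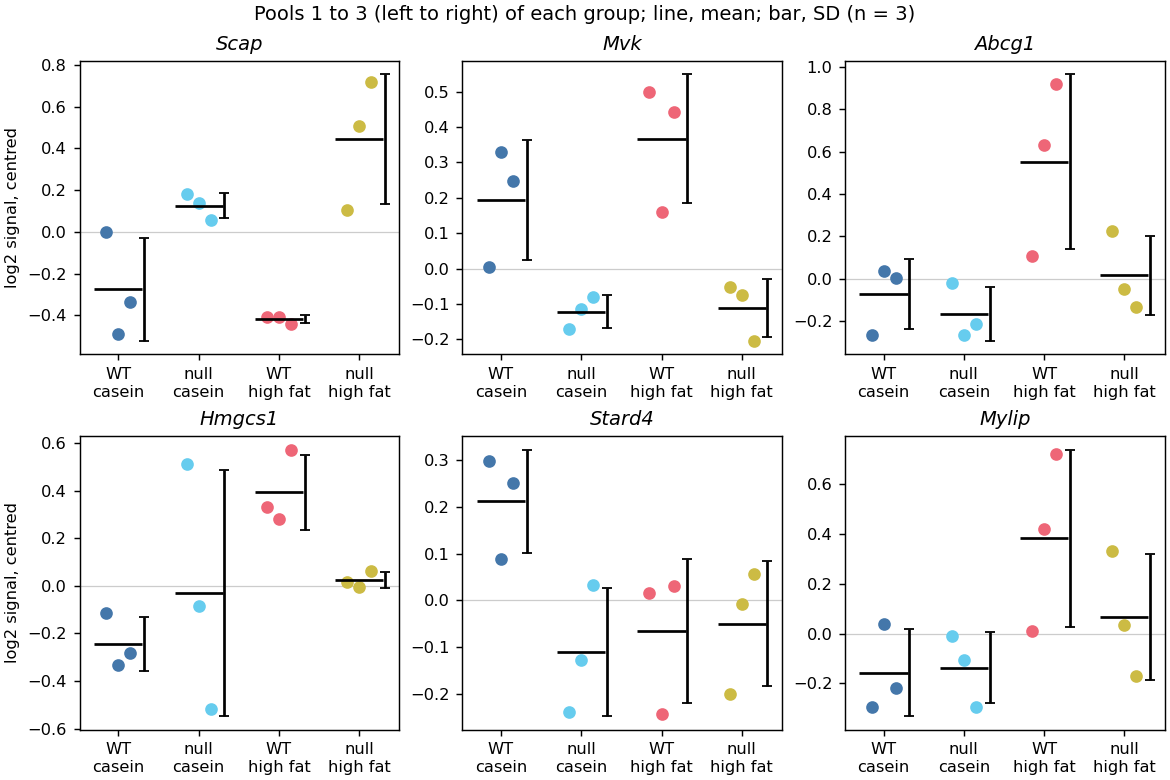
Centred log2 signal of Scap, Mvk, Abcg1, Hmgcs1, Stard4 and Mylip, with pools 1 to 3 of each group as points from left to right, the group mean as a line and the SD (n = 3) as a bar. Every null pool lies above every WT pool for Scap and below it for Mvk, and the other 4 genes have groups that overlap in at least part of the comparisons.

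Genes of the same pathway outside the 30 were read from lists written for this purpose. Of 24 measured genes of other sterol steps, carriers and receptors (32 listed), 0 rose and 1 fell in null pools on HFD, 4.17% called beside 5.92% of all genes, with a median difference of -0.023. The gene that fell was Nr1h3, which encodes the oxysterol receptor LXR alpha. It was at 0.30, 0.34 and 0.57 in WT and at -0.061, -0.15 and -0.40 in null HFD pools, which did not overlap, and it fell by 0.60 ± 0.14 (SE, n = 3 v 3 pools; limma adjusted p = 0.0353). Of 11 fatty acid synthesis targets of SREBP, 1 rose and 0 fell, 9.09% called beside the same 5.92%, with a median difference of -0.023. Elovl5, an elongase of polyunsaturated fatty acids, was at -0.48, -0.68 and -0.53 in WT and at 0.13, 0.15 and 0.51 in null HFD pools, and it rose by 0.83 ± 0.18 (adjusted p = 0.0325). The call of Nr1h3 ended without null casein pool 2 (adjusted p = 0.0543), WT HFD pool 1, 2 or 3 (0.0691, 0.0761 and 0.115) or null HFD pool 2 or 3 (0.103 and 0.139). That of Elovl5 ended without the same pools (0.0516, then 0.0705, 0.0875 and 0.0941, then 0.0953 and 0.129). With the tissue medians as covariates they were at -0.20 (adjusted p = 0.968) and 0.46 (adjusted p = 0.911). Both calls also ended without the 3 pools rich in muscle or liver markers (adjusted p = 0.0766 and 0.0613), that of Nr1h3 with a pool block (0.0618) and that of Elovl5 after quantile normalization (0.0556). Averaged over the diets Nr1h3 fell by 0.44 ± 0.097 (adjusted p = 0.0288) in null pools, a call that ended without WT casein pool 2 (adjusted p = 0.0664), null casein pool 2 or 3 (0.0794 and 0.0717), WT HFD pool 2 or 3 (0.0512 and 0.0646) or null HFD pool 2 or 3 (0.0642 and 0.0697). That averaged call also ended with the tissue covariates, at -0.14 (adjusted p = 0.979), without the 3 pools (0.0688) and with a pool block (0.0523).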

How the data were processed

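Total RNA (8 µg) of abdominal fat pad pools was labelled with biotin and measured on 12 Affymetrix arrays, per the labels. The submitters' processing notes name GCOS and RMA without versions. The deposited values are log2 values, with base 2 taken from the name RMA. The median of each of the 45101 probe sets over the arrays is 0 within 1e-06 (0 exceptions), so the authors had centred them. Levels and signal over background are lost, no filter on dim probes could be run, and the number of arrays limits the precision.

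The platform annotation gave 1 gene for 34958 probe sets, several for 932 and none for 9211, and the last 2 kinds were left out. Symbols were updated by gene identifier through RefSeq (GRCm38.p6), matching 34754 of those with 1 gene. Probe sets of 1 gene were averaged, so pools that separate in the mean can overlap in a single probe set. limma 3.58.1 in R 4.3.3 fitted the 4 group means to all 12 arrays (8 residual and 2.5 prior degrees of freedom). The two-sided p-values were adjusted by Benjamini and Hochberg over 18194 genes, with a threshold of 0.05. They measure the spread between pools, which may be technical. The fit was tested on simulated data, and 0 pairs of arrays were identical. No array carries a date or batch.

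All 29 measured genes are named. Values of every pool were set for the 6 with the smallest unadjusted p in a simple comparison, since fewer than 6 passed, and others were given where a gene's pools are described. Genes outside the 30 are named where they passed. Members, lists and tests were chosen with earlier results of these data known. Alternatives changed the value of a gene, normalization, weights, a span filter, a pool block, tissue covariates and the pools used.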

Additional observations from a re-analysis of the deposited data

How the results depend on the processing

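Scap and Mvk kept their direction in null pools on HFD and averaged over the diets in all 20 alternatives, with ranges of 0.32 to 1.18 and -0.61 to -0.24 on HFD and adjusted p from 0.000471 to 0.905 and 0.00346 to 0.911. The count of the 29 genes called on HFD between genotypes, 2, was 1 with the probe set of the widest span, 1 after quantile normalization again and 1 with pool number as a replicate block, with Mvk lost each time (adjusted p = 0.0568, 0.0573 and 0.062) and 5.35%, 2.87% and 2.98% of all genes called. It was 8 with array weights, beside 28.1% of all genes, and 0 with the tissue medians as covariates, beside 0%. Leaving out 1 pool gave 0 to 2. Averaged over the diets the count of 2 became 4 with array weights (22% of all genes) and 0 with the covariates (0.0165%), and 0 to 3 without 1 pool, with Insig2 added without null casein pool 1. The diet comparison in null pools went from 0 to 1 (Scap) with array weights, beside 5.18% of all genes, a fit that gave null HFD pool 2 a weight of 9.50 and stopped before its tolerance was reached. The counts of 0 in the other comparisons did not move. Abcg1 averaged over the diets turned from -0.31 to 0.013 with the covariates. Of 600 refits of 30 single gene differences 533 kept direction and side of the threshold, 58 lost a call, 8 gained one and 1 turned. Most of the 30 had not passed at first, and these counted as kept when they again did not pass. All 58 losses fell on differences that had passed. Of 20 alternatives each, the call on HFD was lost in 6 for Scap, 7 for Ncf1 and 9 each for Mvk, Nr1h3 and Elovl5. The averaged call was lost in 2 for Scap, 5 for Mvk, 1 for Ncf1 and 10 for Nr1h3. The cause of these shifts was not tested. Of 18 pairs of arrays with the same pool number 3 correlated above 0.1 in their deviations from group means (range -0.615 to 0.59). Of 36 pairs with other numbers 16 did (range -0.604 to 0.615). Null casein and null HFD pools of the same number correlated at 0.548, -0.015 and 0.59 for pools 1, 2 and 3. These correlations cannot exclude a pairing, and the replicate block speaks only of a shared number.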
